A study of Arabidopsis thaliana with 26 samples.

Results

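The transcriptome of Arabidopsis roots was compared between 6 and 3 min after a salt was added, on the 8 ATH1 arrays of these times out of 26 in the series. The 4 arrays at 6 min (2 KNO3, 2 KCl) were set against the 4 arrays at 3 min (2 KNO3, 2 KCl), with salt as a block. All 8 were roots of 14-day-old wild-type Columbia plants, raised in hydroponics on ammonium succinate and left for a day without nitrogen. KNO3 or KCl was then given at equal concentration by moving the plants to fresh medium that held the salt. KNO3 supplied nitrate, and KCl was the control salt with the same cation. The other 18 arrays (2 at time 0 with no salt, and 16 at 9, 12, 15 and 20 min) entered no fit here unless named. Each salt and time held 2 arrays, which the paper calls biological replicates.

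Nitrate is both the main nitrogen source of roots in aerated soil and a signal that alters transcription within minutes, so KCl-treated roots serve to set the nitrate response apart from that of handling and of the cation. Roots short of oxygen switch on a small set of genes, among them those of fermentation, in which pyruvate decarboxylase turns pyruvate into acetaldehyde. Plastids, present in root cells as well as in leaves, carry their own genome, which encodes subunits of the photosystems, of the ATP synthase and of the plastid ribosome. A change in a whole-root sample cannot tell fewer cells of a type from less RNA per cell.

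Relative to 3 min, 6 of 24 measured genes of the low-oxygen response were called lower at 6 min and none higher, with the pyruvate decarboxylase PDC2 at 1899 ± 478 signal units at 6 min and 4399 ± 712 at 3 min (SD, n = 4 each). That gene list was completed with values of these arrays in view. Of 69 measured transcripts encoded in the plastid, 4 were called higher and none lower (0 with each array centred on its median), with the photosystem I subunit psaJ at 8357 ± 1557 signal units at 6 min and 3862 ± 1237 at 3 min. Of 22746 probe sets, 57 (0.251%) had an adjusted p (limma with Benjamini-Hochberg correction) of less than 0.05, written below as "called". Of these, 19 were higher at 6 min (0.0835% of the probe sets) and 38 lower (0.167%), and 2805 had an unadjusted p under 0.05. All 57 had the same direction in KNO3 and in KCl and none was called for a difference between the salts, which the choice by a change common to both salts largely fixes.

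The median change over all probe sets was 0.11 on the log2 scale, and 62.5% lay above 0, so list medians below are to be read against these values. The split into higher and lower depended on the scaling of the arrays. With each array centred on its median, 35 probe sets were called, 2 higher and 33 lower, and with quantile normalization 41 were called, 18 higher and 23 lower. Of the 57, 28 were paired with a single gene, 12 higher and 16 lower.

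The 8 arrays resembled each other in brightness and stood apart from the other 18. The mean of their hybridization spike-ins was 12.23 to 13.08 (log2), against 9.68 to 10.90 on the other arrays. Their 25S rRNA signal was 14.14 to 14.97 (log2), against 7.52 to 12.63. The actin 3′ minus 5′ probe set difference was lower on the 8, at 0.62 to 1.28 against 1.71 to 2.40. The same difference was higher on the 8 for GAPDH, at 0.63 to 0.92 against -0.19 to 0.29. For ubiquitin it was also higher, at 1.16 to 1.47 against 0.23 to 0.60. Between the 4 arrays at 6 min and the 4 at 3 min, the GAPDH 3′ minus 5′ difference was 0.74 to 0.92 and 0.63 to 0.73 (log2), with no overlap (exact permutation test, two-sided, p = 0.0286, the smallest that 4 against 4 allows; Benjamini-Hochberg adjusted p = 0.20 over 7 measures). The median log2 signal was 8.06 ± 0.07 at 6 min and 7.90 ± 0.13 at 3 min (SD, n = 4 each; exact p = 0.114, adjusted p = 0.40). The part of these measures in the gene changes was not tested, beyond the covariate and scaling alternatives given at the end. Within the 4 groups, replicates correlated at 0.923 to 0.933, below the 0.939 to 0.973 of the other 9 groups.

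PDC2 (AT5G54960), a gene of fermentation, had the lowest adjusted p of any gene named here. Its signal at 6 min was 1454 and 1542 in the KNO3 arrays and 2438 and 2161 in the KCl arrays. At 3 min it was 3582 and 4048 in the KNO3 arrays and 4825 and 5139 in the KCl arrays. Every array at 6 min lay below every array at 3 min, and at each time the KCl arrays were the higher pair. The change was -1.23 (SE 0.10, 95% confidence interval -1.461 to -1.003, log2; limma, adjusted p = 0.00085), a signal 2.35 times lower at 6 min. It was called within each salt alone, at -1.35 in KNO3 (adjusted p = 0.0109) and -1.12 in KCl (adjusted p = 0.00839), and the difference between the salts was -0.23 (95% confidence interval -0.68 to 0.22).

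The steepest fall among the named genes was that of AT3G29970, a member of the low-oxygen list for which the annotation used here gives no product. Its signal at 6 min was 765 and 213 in KNO3 and 1097 and 1471 in KCl, against 3034 and 1999 in KNO3 and 7854 and 8499 in KCl at 3 min. The arrays did not overlap between the times, although the KNO3 replicates at 6 min differed widely from one another. The change was -2.65 (SE 0.30, 95% confidence interval -3.31 to -1.98; limma, adjusted p = 0.0059), close in size in KNO3 (-2.61) and KCl (-2.69).

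AT1G33055, likewise without a product in the annotation, had 473 and 314 signal units in KNO3 and 608 and 437 in KCl at 6 min, against 1554 and 1436 in KNO3 and 1305 and 1459 in KCl at 3 min. At 3 min all 4 arrays were alike, and at 6 min all 4 were lower than any of them. It fell by 1.69 on the log2 scale (SE 0.18, limma adjusted p = 0.0036). With PDC2 it was the only gene with a single pairing to be called within KNO3 and within KCl.

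AT3G03270 had 2619.8 and 1671 units in KNO3 and 4518 and 4098 in KCl at 6 min, against 5193 and 5109.7 in KNO3 and 9294 and 13234 in KCl at 3 min. The KCl arrays were the higher pair at both times, and no array at 6 min reached the lowest at 3 min. The change was -1.33 (SE 0.16, limma adjusted p = 0.0059). AT4G17260 had 1177 and 1143 units in KNO3 and 1545 and 1634 in KCl at 6 min, against 2607 and 2565 in KNO3 and 2317 and 3259 in KCl at 3 min. Its 4 arrays at 6 min stayed below all 4 at 3 min, with a change of -0.97 (SE 0.13, limma adjusted p = 0.013).

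CML38, a calmodulin-like calcium-binding protein, belonged to the low-oxygen, touch and wound, and calcium signalling lists. Its signal was 505 and 334 in KNO3 and 540.3 and 338 in KCl at 6 min, against 910.1 and 897 in KNO3 and 728 and 998 in KCl at 3 min. Replicate 2 was the lower array of each salt at 6 min, and the times did not overlap. The change was -1.07 (SE 0.19, limma adjusted p = 0.049).

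**Figure D1:**
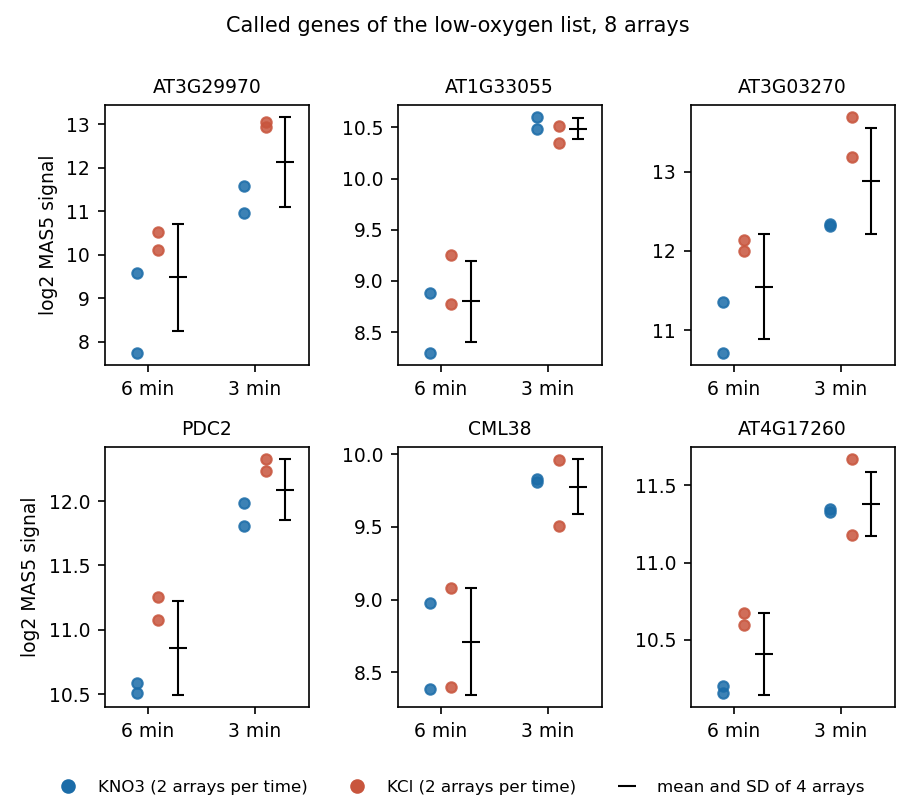
Log2 MAS5 signal (vertical axis) of the 6 called members of the low-oxygen list at 6 and 3 min (horizontal axis). Points are single arrays coloured by salt, bars are the mean and SD of 4 arrays, and in every panel the 4 arrays at 6 min lie below the 4 at 3 min.

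The low-oxygen list held 59 genes, of which 24 had a probe set of their own in the annotation used, written here as measured. The rest were not assessed and may still be on the array. Of the 24, 6 were called lower (0.167% of all probe sets were) and none higher, and 18 had an unadjusted p under 0.05 in the downward direction, against 4.64% of all probe sets. The median change was -1.07, 22 members lay below 0, and in 11 members the 4 arrays at 6 min were all below the 4 at 3 min, against 2.47% of all probe sets. The list was completed with values of these arrays in view and is no independent evidence of its direction.

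Of the members that were not called, 5 did not overlap between the times. The nearest to the threshold was AT2G17850, with 564 and 189.9 units in KNO3 and 1053 and 1804 in KCl at 6 min, against 2549.8 and 2288 in KNO3 and 3066 and 3191 in KCl at 3 min (change -2.03, limma adjusted p = 0.052). AT4G27450, the brightest member that was not called, had 5989 and 2006 units in KNO3 and 10020.0 and 7984 in KCl at 6 min, against 12046 and 8582 in KNO3 and 21917 and 19929 in KCl at 3 min. Its KCl array at 10020.0 lay above the lower KNO3 array at 3 min, so the times overlapped, and it missed the threshold (adjusted p = 0.073). AT3G10040, whose synonym HRA1 stands for an attenuator of the hypoxia response, had 62.8 to 113 units at 6 min and 109 to 354 at 3 min (adjusted p = 0.24).

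The 2 members above 0 were AT5G42200, at 0.15, and AT5G45960, at 0.84. AT5G45960 was dim, at 14.1 to 40.7 units at 6 min and 6.95 to 18.4 at 3 min, and neither passed the test.

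Across the 24 members the median change was -1.35 in KNO3 and -0.80 in KCl. In KNO3 22 lay below 0 and in KCl 20, 22 kept 1 direction in both salts (60.8% of all probe sets did), and the changes in the salts correlated at 0.61 over these 24 probe sets. The fall was larger in KNO3 for 15 members, but the difference between the salts was called for none (lowest limma adjusted p = 0.73, AT3G27220). Within each salt alone, 4 members were called lower. These values are a description, since the 24 points come from the same 8 arrays.

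Outside that list, 7 named genes fell. AT3G15650 had 97.6 and 113 units in KNO3 and 113 and 252 in KCl at 6 min, against 489 and 413 in KNO3 and 432 and 514 in KCl at 3 min. All arrays at 6 min were lower than those at 3 min, with KCl replicate 2 the highest of the 6 min arrays, and the change was -1.79 (SE 0.28, limma adjusted p = 0.031). TIL, a temperature-induced lipocalin of membranes, had 7292 and 5271 units in KNO3 and 7819.8 and 6834 in KCl at 6 min, against 11533 and 9341 in KNO3 and 13813 and 16168 in KCl at 3 min. It was bright on every array, its times did not overlap, and it changed by -0.89 (SE 0.15, adjusted p = 0.037).

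Prx37, a peroxidase of the class secreted to the cell wall, was nearly equal on the 4 arrays at 6 min, at 3339 and 2973 units in KNO3 and 3149 and 3198 in KCl. At 3 min it had 5189 and 4286 units in KNO3 and 7016 and 7075 in KCl, all above the 6 min arrays and highest in KCl. The change was -0.87 (SE 0.13, limma adjusted p = 0.031). The other 4 genes, AT3G27770, AT1G19020, AT1G68850 and AT3G28480, carry no product in the annotation and had changes between -1.12 and -0.80, each without overlap of the times.

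Among the rises, plastid-encoded transcripts supplied 4 of the 9 named genes. psaJ, a small subunit of photosystem I, had 10568 and 8189 units in KNO3 and 7700.4 and 6969 in KCl at 6 min, against 2654 and 5591 in KNO3 and 3653 and 3549 in KCl at 3 min. KNO3 replicate 2 was the highest array at 3 min and still lay below all 4 at 6 min. The change was 1.15 (SE 0.20, 95% confidence interval 0.72 to 1.58; limma, adjusted p = 0.039).

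psaI, another small photosystem I subunit, had 4072 and 3104 units in KNO3 and 2603 and 2221 in KCl at 6 min, against 1611 and 1986 in KNO3 and 1675 and 1322 in KCl at 3 min. At 6 min the KNO3 arrays were the higher pair, and the times did not overlap (change 0.84, SE 0.14, limma adjusted p = 0.036). psbZ, a photosystem II subunit, had 2142 and 1646 units in KNO3 and 1403 and 1499.6 in KCl at 6 min, against 852 and 1030.0 in KNO3 and 874 and 779 in KCl at 3 min. It showed the lowest adjusted p among the named rises, with the lowest array at 6 min above the highest at 3 min (change 0.91, SE 0.12, adjusted p = 0.018).

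rpl20, a protein of the plastid ribosome, had 542 and 467 units in KNO3 and 448 and 389 in KCl at 6 min, against 215 and 257 in KNO3 and 191 and 173 in KCl at 3 min. All 4 arrays at 6 min were above 3 min, by 1.15 on the log2 scale (SE 0.18, limma adjusted p = 0.031). In the RefSeq gene order rpl33 and rps18 lie between psaJ and rpl20. Their changes were not called, at -0.42 for rpl33 (adjusted p = 0.56) and -0.16 for rps18 (adjusted p = 0.73), and both overlapped between the times.

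**Figure D2:**
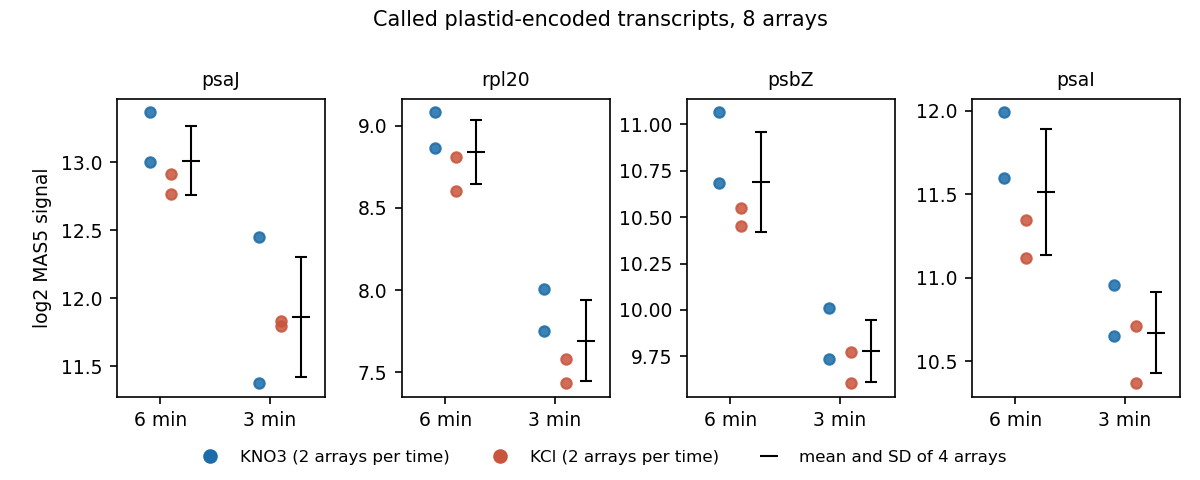
Log2 MAS5 signal (vertical axis) of the 4 called plastid-encoded transcripts at 6 and 3 min (horizontal axis). Points are single arrays coloured by salt, bars are the mean and SD of 4 arrays, and in each panel the 4 arrays at 6 min lie above the 4 at 3 min.

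Of 84 plastid-encoded genes, 69 had a probe set of their own. The cDNA was primed with oligo(dT), and the part of that priming in the plastid signals was not tested. Of these, 4 were called higher (0.0835% of all probe sets were) and none lower, 31 had an unadjusted p under 0.05 upward (7.69% of all probe sets), and 59 lay above 0, with a median of 0.52. In 20 of the 69 the arrays at 6 min were all above those at 3 min, against 4.78% of all probe sets. With median centring the median was 0.36 and none was called, and with quantile normalization it was 0.44 with 4 called.

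By function, the 5 photosystem I subunits had a median change of 0.84 and 4 of them did not overlap between the times. Subunits of photosystem II had a median of 0.23 over 15 members, and those of the cytochrome b6f complex, which passes electrons between the photosystems, 0.26 over 6. ATP synthase subunits stood at 0.54 (6 members), subunits of the NADH dehydrogenase-like complex at 0.46 (10), RNA polymerase subunits at 0.55 (4) and ribosomal proteins at 0.56 (15). These groups were not tested against each other.

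Bright members were among those that barely moved. The photosystem II subunit psbM had 20236 to 30814 units at 6 min and 21631 to 30621 at 3 min (change -0.03), and the cytochrome subunit petB had 9790 to 10631 at 6 min and 8887 to 11943 at 3 min (change 0.00). rbcL, the large subunit of Rubisco, had 310 to 597 units at 6 min and 230 to 286 at 3 min without overlap, but was not called (change 0.78, limma adjusted p = 0.21). The member with the highest change, ndhF at 2.72, was dim at 33.8 to 108 units at 6 min and 8.82 to 15.2 at 3 min, and was not called either (adjusted p = 0.090).

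Of the 4 arrays at 3 min, KCl replicate 2 had the lowest signal for 46 of the 69 members, among them 17 of the 19 ribosomal protein and RNA polymerase transcripts (all but rps14 and rpoB). There rps3 had 289 units and rpoA 398, while the other 3 arrays at 3 min had 1459 to 2651 and 785 to 2480. Without that array the list median was 0.27 and 1 member was called, and without each of KNO3 3 min replicate 1, KCl 6 min replicate 1 and KCl 6 min replicate 2 none was. Without KNO3 3 min replicate 2, KNO3 6 min replicate 1 or KNO3 6 min replicate 2, 1 was called, and the median stayed between 0.40 and 0.54 in all of these but the first.

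Nuclear genes of green tissue were also looked at. Of the 52 symbols in that list 7 were measured and none was called (median change 0.28). Of the 7, 5 lay above 0 and 2 below, the lowest at -0.58. In only 1 were the arrays at 6 min all above those at 3 min. Their summed signal was 1438 to 1896 units at 6 min and 1103 to 1432 at 3 min, without overlap. None was listed at 0, the dimmest value being 5.05, for PSAE-1. PSBW, a photosystem II protein, had 379 and 479 units in KNO3 and 437 and 429.5 in KCl at 6 min, against 270.3 and 255 in KNO3 and 289 and 180 in KCl at 3 min (change 0.81, adjusted p = 0.15). Its times did not overlap, while the light-harvesting gene LHCB4.2 was near background at 17.1 to 32.7 units at 6 min and 10.7 to 71.02 at 3 min. The part of green tissue in the plastid result was not tested. The annotation paired EXPA7 and EXPA18, expansins of root hair cells, and no other listed root marker with a probe set of its own. Root identity was checked with these genes, which had 462 to 1324.1 units at 6 min and 636.7 to 1235 at 3 min. Their summed signal was 1346 to 1977 units at 6 min and 1593 to 2132.5 at 3 min, so the times overlapped.

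The other named rises were nuclear. AT3G30280 had 664 and 359.9 units in KNO3 and 429 and 539.9 in KCl at 6 min, against 112 and 182 in KNO3 and 98.5 and 198 in KCl at 3 min. It rose without overlap, by 1.78 on the log2 scale (SE 0.29, limma adjusted p = 0.036). AT1G07330 had 278 and 285 units in KNO3 and 352 and 580.3 in KCl at 6 min, against 108 and 106 in KNO3 and 132 and 108 in KCl at 3 min. The 4 arrays at 3 min were tightly grouped below all 4 at 6 min, of which KCl replicate 2 was the highest (change 1.66, SE 0.26, adjusted p = 0.031).

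AT4G30450, a glycine-rich protein, had 2784 and 2245 units in KNO3 and 2465 and 1917 in KCl at 6 min, against 1305 and 1278 in KNO3 and 1399 and 1532 in KCl at 3 min. All arrays at 6 min were higher (change 0.76, SE 0.13, limma adjusted p = 0.038). AT4G38490 (0.86) and AT1G64370 (0.80), both annotated as unknown proteins, also rose. SBT4.12, a subtilase, was called higher (0.79, adjusted p = 0.036) although its lowest array at 6 min, 798, lay under its highest at 3 min, 831.

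The call of each named gene was recomputed with each array left out in turn. PDC2, AT1G33055, AT3G29970 and AT3G03270 were called in 8 of 8 such fits. AT4G17260 was called in 5 of 8 and lost without KNO3 3 min replicate 1, KNO3 3 min replicate 2 or KCl 6 min replicate 1 (adjusted p = 0.061 to 0.079). psbZ was called in 4 of 8 and lost without those arrays or KCl 6 min replicate 2 (adjusted p = 0.053 to 0.079). The other 16 named genes were called in 0 to 2 of 8, CML38 in 0, and none changed direction.

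Medians of other lists lay nearer to that of all probe sets. The 22 mitochondrion-encoded probe sets, which include several for nad1, had a median change of 0.15 with 0 called (2 higher and 0 lower at an unadjusted p under 0.05), and the median was -0.01 with quantile normalization and -0.00 with median centring. Of 179 cytosolic ribosomal protein genes 99 were measured, and none was called in either direction (3 higher and 8 lower at an unadjusted p under 0.05). Their median was -0.07, with 67 below 0. It was 0.05 with quantile normalization and -0.23 with median centring, so no direction of the pooled change held under both. In KNO3 the median was -0.23 with 89 below 0, and in KCl 0.06 with 36 below 0 and 63 above. Of all probe sets, 58.7% lay above 0 in KNO3 and 61.1% in KCl. The difference between the salts was called for none of the 99, and the values within a salt were not recomputed under other scaling. The 16 measured genes of the early touch and wound response had a median of 0.04 and 1 call, CML38, and the 12 of heat shock and chaperones a median of -0.06 and 0 calls (1 higher and 1 lower at an unadjusted p under 0.05).

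Nitrogen transport and assimilation, the functions that use nitrate, had 78 listed genes, of which 13 were measured. These 13 had a median of 0.16 and 0 calls (1 higher and 2 lower at an unadjusted p under 0.05), and the rest were not assessed. NRT2.5, a high-affinity nitrate transporter, had 3039.5 and 2914.5 units in KNO3 and 2425 and 1290.5 in KCl at 6 min, against 3160.2 and 3650.4 in KNO3 and 2318 and 4313 in KCl at 3 min. Its times overlapped (change -0.51, limma adjusted p = 0.39). AT3G21670 had 304 to 342 units at 6 min and 413 to 574 at 3 min, all lower at 6 min, with a change of -0.59 that was not called (adjusted p = 0.18).

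Counting nitrogen transport and green tissue, 24 lists beyond the 6 plotted by list had at least 3 measured members, with medians between -0.19 (bZIP and TGA factors) and 0.37 (cytokinin). Only calcium signalling held a call, CML38. Another 15 lists had fewer than 3 measured members and are not described as lists.

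**Figure D3:**
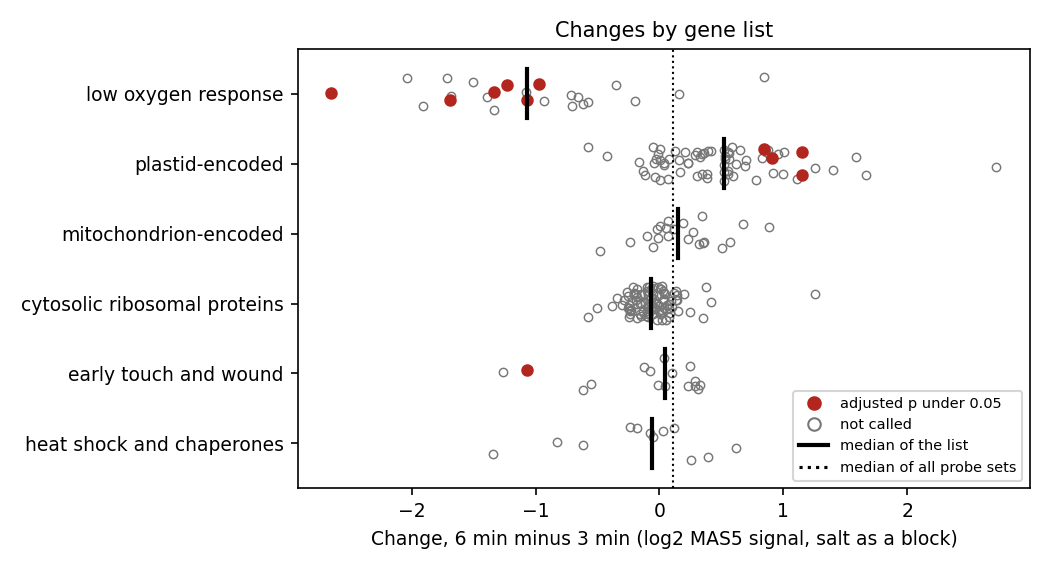
Change from 3 to 6 min (log2, horizontal axis) of each measured member of 6 gene lists (vertical axis). Filled points were called and open points were not, thick bars are list medians and the dotted line is the median of all probe sets, 0.11. The low-oxygen list has its median at -1.07 and the plastid-encoded transcripts at 0.52.

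Whether the change over these minutes differed between nitrate and the control salt was tested as the change in KNO3 minus that in KCl. It was called for 10 of 22746 probe sets (0.0440%), 6 higher (0.0264%) and 4 lower (0.0176%), of which 4 had a single gene, and 1127 had an unadjusted p under 0.05. With median centring 1 was called, a lower one, and with quantile normalization 9, 6 higher and 3 lower.

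ARPN, plantacyanin, a blue copper protein of the extracellular matrix, had 2813 and 2891 units in KNO3 and 987 and 869.6 in KCl at 6 min, against 1466 and 1801 in KNO3 and 2332 and 3311 in KCl at 3 min. KNO3 was the higher salt at 6 min and the lower one at 3 min. The change in KNO3 exceeded that in KCl by 2.40 (SE 0.27, 95% confidence interval 1.81 to 2.98, log2; limma, adjusted p = 0.010).

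AT2G38870 had 2217 and 3668 units in KNO3 and 1472 and 1019 in KCl at 6 min, against 2366 and 2379 in KNO3 and 6700.4 and 11303 in KCl at 3 min. The KCl arrays at 3 min were the highest, and the KNO3 arrays overlapped between the times (difference 3.09, SE 0.40, limma adjusted p = 0.023). AT2G15220 had 1407 and 1635 units in KNO3 and 884 and 1024 in KCl at 6 min, against 1898 and 1970.2 in KNO3 and 3603 and 4738 in KCl at 3 min. It was lower at 6 min in both salts, and more so in KCl (difference 1.77, SE 0.24, adjusted p = 0.037).

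AT1G52820 went the other way. Its signal was 602 and 505 in KNO3 and 1268 and 1971 in KCl at 6 min, against 1509.6 and 1911 in KNO3 and 874 and 649.7 in KCl at 3 min. KCl was the higher salt at 6 min and the lower one at 3 min (difference -2.69, SE 0.34, 95% confidence interval -3.43 to -1.95; limma, adjusted p = 0.023). All 4 genes rest on 2 arrays in each cell of the design.

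Tested within 1 salt, 15 probe sets were called in KNO3 (0.0659%), 2 higher (0.00879%) and 13 lower (0.0572%). In KCl 88 were called (0.387%), 16 higher (0.0703%) and 72 lower (0.317%). Both salts shared 6 of these, which is 40% of the KNO3 calls and 6.82% of the KCl calls. A call in 1 salt alone does not show that the salts differ, a difference called for the 10 probe sets above. With median centring the split was 0 higher and 10 lower in KNO3 and 3 higher and 55 lower in KCl.

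In 70 of the 72 probe sets that were lower at 6 min in KCl, the KCl arrays at 3 min had the highest mean of the 4 groups, and in 52 of them the other 3 groups lay within 1 log2 unit. The median change of the 72 was -0.17 in KNO3 and -1.44 in KCl. In 15 of the 16 higher ones, the KCl arrays at 3 min were the lowest group (median change 0.34 in KNO3 and 1.17 in KCl). These counts use the contrast that chose the probe sets and are given as a description.

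OSM34, osmotin, a defence protein, had 6296 and 6619 units in KNO3 and 5796 and 4900.4 in KCl at 6 min, against 7806 and 6306 in KNO3 and 13521 and 16418 in KCl at 3 min. The 2 KCl arrays at 3 min stood above the other 6 (change -0.12 in KNO3, and -1.48 in KCl with a limma adjusted p of 0.0061). YLS5 was likewise highest in KCl at 3 min, with 2849.8 and 4065 units in KNO3 and 2568 and 2341 in KCl at 6 min, against 3409.6 and 3703 in KNO3 and 7052 and 9340.2 in KCl at 3 min (change in KCl -1.73, adjusted p = 0.0046).

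BCAT4, an aminotransferase that starts the chain elongation of methionine in glucosinolate synthesis, ran the opposite way. It had 2384 and 3232 units in KNO3 and 2400.5 and 2801 in KCl at 6 min, against 2267 and 2708 in KNO3 and 751 and 910.0 in KCl at 3 min. Only the KCl arrays at 3 min were low (change 0.16 in KNO3, and 1.65 in KCl with a limma adjusted p of 0.0046). Neither OSM34, YLS5 nor BCAT4 was called for the difference between the salts (adjusted p = 0.13 to 0.16).

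Across all probe sets the changes in the salts correlated weakly, at 0.13 (Pearson, n = 22746), and at 0.32 over the 13648 at or above the 40th percentile of mean signal. Of these brighter probe sets 64.0% had the same direction in both salts. These are correlations across probe sets of the same 8 arrays, and probe sets are not independent replicates.

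**Figure D4:**
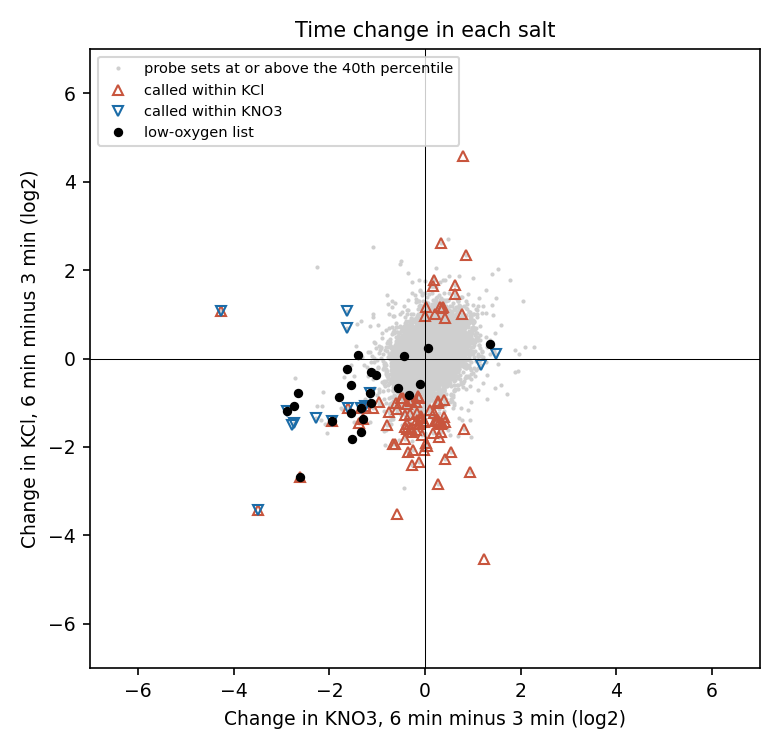
Change from 3 to 6 min in KNO3 (horizontal axis, log2) and in KCl (vertical axis, log2) with probe sets at or above the 40th percentile of mean signal in grey. Drawn at any signal, upward triangles mark the 88 called within KCl, downward triangles the 15 called within KNO3 and black points the 24 low-oxygen members, most of which lie below 0 on both axes.

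For the same step elsewhere in the series, later neighbouring times were fitted in the same way, 12 against 9 min, 15 against 12 min and 20 against 15 min. They gave 278 (1.22%), 2 (0.00879%) and 79 (0.347%) called probe sets. Neighbouring steps share the arrays of 12 or of 15 min. The low-oxygen median was -0.03, 0.04 and -0.92 in these steps, with 13, 11 and 23 of the 24 members below 0 and none called. Between 6 and 3 min 22 were below 0 and 6 were called. From 15 to 20 min the list mean (log2) went from 9.47 and 9.99 to 7.56 and 7.55 in KCl. In KNO3 it went from 7.93 and 8.92 to 8.65 and 8.44, so that step averages unlike changes of the salts. The list was completed with values at 3 and 6 min in view, so its counts are not comparable between steps. The plastid median was 0.29, 0.34 and -0.57, with 11, 0 and 7 called.

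The step from 3 to 6 min differed from that from 9 to 12 min in 676 of 22746 probe sets (limma over all 26 arrays, adjusted p under 0.05). Of these, 31 were among the 57 called above. PDC2 was among the 31, with a difference of -1.19 (limma adjusted p = 0.024) and a change of -0.05 from 9 to 12 min. The difference contains the change from 3 to 6 min that chose the 57, so the overlap is largely built in. That fit takes a common spread from all 26 arrays. Replicates at 3 and 6 min correlated at 0.923 to 0.933, below the 0.939 to 0.973 of the other groups. The count of 676 and the adjusted p of PDC2 may therefore be too favourable. The time change itself had far more calls over all 26 arrays, as given at the end.

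The mean log2 signal of the low-oxygen list was 7.96 to 8.74 on the arrays at 6 min and 9.42 to 9.63 on those at 3 min, without overlap. It was 9.15 and 9.42 at time 0. At 9 to 20 min it ranged from 7.55 to 9.99, and the KCl arrays had 9.69 and 9.84 at 9 min and 7.56 and 7.55 at 20 min. The plastid mean was 9.78 to 10.22 at 6 min and 9.02 to 9.64 at 3 min, again without overlap, against 8.45 and 8.90 at time 0 and 8.51 to 9.96 later. Levels of the 8 arrays cannot be told apart from their brightness when set against the other 18.

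**Figure D5:**
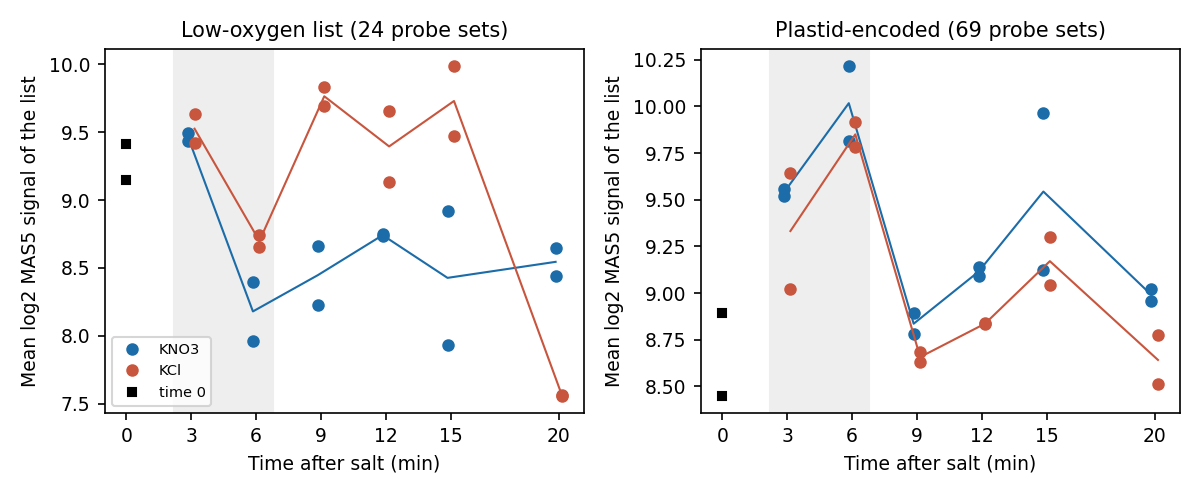
Mean log2 MAS5 signal (vertical axis) of the low-oxygen list (24 probe sets) and the plastid-encoded transcripts (69 probe sets) against time after salt (horizontal axis, min). Points are arrays, lines join the means of 2 arrays of a salt, black squares are time 0 and grey marks the 8 brighter arrays at 3 and 6 min, where the low-oxygen mean is lower and the plastid mean higher at 6 min.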

How the data were processed

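Roots were hybridized to Affymetrix ATH1 arrays. The authors computed MAS5 signal intensity values, deposited on a linear scale with 1 value per probe set and array, and their 2% trimmed mean was 500 on every array. This is not the median target named in the methods, and signal units here follow the deposited values. Arrays have no read depth, so their number limits the precision. The paper describes the replicates as independent between times but not whether those of 1 group came from separate cultures, so p-values measure the spread between these samples, which may be technical.

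After 64 control probe sets were left out of 22810, 22746 were tested as log2 with limma 3.58.1 in R 4.3.3 (eBayes with intensity trend, 5 residual and 6.75 prior degrees of freedom), salt as a block, and adjusted by Benjamini-Hochberg. The platform annotation paired 13513 with 1 gene, 503 with several and listed none for 8730, which stay unnamed. Genes counted as not measured may have probe sets among the 503 or the 8730, so list counts do not cover whole pathways. Named genes were called, paired with 1 gene, at or above the 40th percentile of mean signal and without overlap between the times. At most 15 in each direction were to be named, and as fewer passed, all 9 rises and 13 falls were. The 4 interactions that passed the same rule without the condition on overlap were also named. OSM34, YLS5, BCAT4, SBT4.12, NRT2.5, PSBW and list members that were not called were chosen after their values were seen. The members and lists were chosen with earlier results of these data known, and lists given by locus tag were completed after values were seen. One gene matched to the heat shock list only by an alias was left out. In simulated data with 22746 probe sets, the time change test recovered 13 of 50 changes of 0.5, 38 of 50 of 1 and 50 of 50 of 2 (log2), with 5 false calls in all. The simulated noise was normal, independent between arrays and set by signal alone. All changes were placed at or above the 40th percentile of mean signal, so these counts may be too favourable for the real arrays. Alternatives left out the trend, dim probe sets, the salt term or 1 array, added 32 to the signals, normalized by quantiles, used all 26 arrays, a replicate block or linear signals, and, chosen after seeing the data, centred on medians or added spike-in brightness as a covariate.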

Additional observations from a re-analysis of the deposited data

Results flagged for a closer look

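In 4 named genes the change from 3 to 6 min differed between KNO3 and KCl by limma's test of the difference itself, with 2 arrays in each of the 4 groups. The change in KNO3 minus that in KCl was 3.09 for AT2G38870, 2.40 for ARPN, 1.77 for AT2G15220 and -2.69 for AT1G52820 (log2). In ARPN both KNO3 arrays at 6 min lay above both at 3 min and both KCl arrays below, and in AT1G52820 the reverse held. With 1 array left out in turn, ARPN was called in 4 of 8 fits, AT2G38870 and AT1G52820 in 3 of 8 each, and AT2G15220 in 1 of 8, and the sign did not change in any of them. Over all alternatives run, the adjusted p ranged from 4.4e-06 to 0.61 for ARPN.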

How the results depend on the processing

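The direction of the 26 named results held in all 460 alternative values, but the call was lost in 240 of them, and no result kept its call in every one. The 57 calls of the time change became 4 without the intensity trend, 1329 over all 26 arrays (54 shared with the 57), 98 without dim probe sets, 1598 on linear signals, 12 without the salt term and 35 with median centring. Leaving out an array gave 11 to 33, and each of the 8 moved the count by over 1.5 times. With spike-in brightness as a covariate 43 were called, 10 higher and 33 lower. The 10 calls of the difference between the salts became 0 without the trend (1080 at an unadjusted p under 0.05), 138 over all arrays, 139 on linear signals, 1 with centring and 2 to 26 without 1 array, 26 without KCl 3 min replicate 1, 3 without KNO3 6 min replicate 2, and 2 without KNO3 3 min replicate 1, KNO3 3 min replicate 2 or KCl 6 min replicate 2. The 15 in KNO3 became 2 without the trend, 150 over all arrays, 194 on linear signals, 29 without dim probe sets, 8 with 32 added to the signals, and 1 to 24 without 1 array, with 1 without either KNO3 array at 3 min, 3 without KNO3 6 min replicate 2, 9 without either KCl array at 6 min, 23 without KNO3 6 min replicate 1 and 24 without KCl 3 min replicate 2. The 88 in KCl became 0 without the trend (2097 at an unadjusted p under 0.05), 1246 over all arrays, 140 without dim probe sets, 1374 on linear signals, 58 with centring, and 5 (without KCl 6 min replicate 2) to 370 (without KCl 3 min replicate 1, 190 higher and 180 lower), with 32 to 48 without KCl 6 min replicate 1, KCl 3 min replicate 2 or either KNO3 array at 3 min. The causes were not tested. Whether replicate numbers pair the samples was not settled. Correlations of deviations between same-numbered arrays were -0.08 to 0.08 over all probe sets. They were -0.19 to 0.22 over those at or above the 40th percentile of mean signal. There KNO3 6 min, KNO3 3 min and KCl 3 min correlated positively with each other, and KCl 6 min negatively with each of these. With a replicate block 53, 16, 28 and 90 were called for the time change, the difference, KNO3 and KCl. The median of the low-oxygen list stayed between -1.23 (without dim probe sets, which leaves 19 members) and -0.94. With 1 array left out in turn, 21 or 22 of its 24 members lay below 0. The median of the plastid-encoded list stayed between 0.27 and 0.54. Dim probe sets, under a mean log2 signal of 7.43, held 8 of the 57 calls.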
